A study of Mus musculus with 9 samples.

Results

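Serpinh1 and the genes that build collagen were examined in macrophages sorted from mouse visceral fat. The set held 10 genes, chosen by symbol from the 14905 genes of the deposited table. They encode the collagen chaperone (Serpinh1), collagen-modifying enzymes and a folding isomerase (P4hb, P4ha1, Plod1, Plod3, Fkbp10), chains of fibrillar collagens (Col1a1, Col1a2, Col3a1) and the collagen-binding glycoprotein Sparc. All 10 symbols were found. The set was put together with the genotype difference of Serpinh1 already known, so the genotype values of the 10 genes are given as a description and not as a test. Serpinh1 was 1 of the 46 genes past the threshold used over the whole table (limma with Benjamini-Hochberg adjustment at 0.05), and the other 9 were not.

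The samples were 5 libraries of Nucb2-/- cells (KO) and 4 of wild-type cells (WT), all C57BL/6. Both groups were the F4/80 and CD11b double-positive cells of a fluorescence-activated sort. By its title the series concerns obesity and insulin sensitivity. Age, sex and the cells in which the allele is lost are not given in the labels. Nor is diet, although the deposited table, which holds both groups, has HFD in its name, a usual abbreviation for high-fat diet. Whether the numbered replicates are separate mice is not stated, and p-values here describe the scatter of the libraries, part of which may be technical. Values are read counts divided by 1 factor per library, with a floor of 1, and are called normalized counts here. Their totals over the deposited genes were not equal: 6.51e+07 to 6.70e+07 in KO and 6.85e+07 to 7.09e+07 in WT.

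Nucb2 checks the labels. Its normalized count was 1493, 1466, 1623, 1165 and 1752 in KO replicates 1 to 5, against 4457, 4253, 5233 and 3311 in WT replicates 1 to 4. The groups did not overlap, and the transcript was still detected in every KO library, at 34.8% of the WT mean. The log2 difference, KO minus WT, was -1.52 (SE 0.17), and a two-sided exact permutation test on the log2 values had p = 0.0159, the smallest possible with 5 and 4 libraries. Depth, recovered from the step between successive values, was 74937721 to 85200101 reads in KO replicates 1 to 4 and WT replicates 1 and 2, and 51148956 to 55004978 reads in KO replicate 5 and WT replicates 3 and 4. Both sort antigens were abundant in every library: Adgre1, which encodes F4/80, had 85568 to 100567 normalized counts in KO and 98976 to 118970 in WT, and Itgam, which encodes CD11b, had 20644 to 25401 in KO and 19952 to 22252 in WT.

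Fibrillar collagen is made in the endoplasmic reticulum. Its chains are hydroxylated on proline and lysine, fold into a triple helix, and leave in large carriers before the propeptides are cut off outside the cell. Serpinh1 encodes HSP47, a chaperone of the serpin family that inhibits no protease and binds the folded procollagen helix until it reaches the Golgi. In adipose tissue the main source of fibrillar collagen is the fibroblast, and macrophages are better known for taking collagen up and degrading it.

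Serpinh1 was the single gene of the 10 whose libraries separated by genotype. Its normalized count was 15431, 13952, 22854, 20796 and 33853 in KO replicates 1 to 5, against 7202, 6317, 8275 and 6677 in WT replicates 1 to 4. Every KO library was above every WT library, and KO replicate 5 was highest. The mean was 21377 ± 7884 in KO (SD, n = 5) and 7118 ± 853 in WT (SD, n = 4). On the log2 scale KO minus WT was 1.52 (SE 0.20, 95% interval 1.11 to 1.94), a 2.87-fold difference. The coefficient of variation was 36.9% among KO and 12.0% among WT libraries, so the KO libraries were the more spread. Of all genes, 0.309% passed the threshold, in 3.15% the libraries of the 2 groups did not overlap, and in 1.55% every KO library was above every WT library. The Serpinh1 call was lost when KO replicate 3, KO replicate 4, WT replicate 2 or WT replicate 4 was left out (limma adjusted p = 0.080, 0.067, 0.10 and 0.082), with a difference of 1.34 to 1.66 when each library in turn was left out. Because these are bulk samples, more cells that carry a transcript and more transcript per cell cannot be told apart.

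Serpinh1 lies on the minus strand of chromosome 7 from 99345376 to 99353239 (mm10), 17.2 megabases from Nucb2 on the same chromosome. Of the 10 nearest tabled genes, 5 on each side, 0 passed the threshold, against 0.309% of all genes (smallest limma adjusted p = 0.63). At that share 0 of 10 does not show that the region was unaffected. Differences of the 10 ran from -0.85 (Gdpd5) to 0.74 (Map6). On the proximal side the nearest genes were Emsy, Wnt11, Uvrag, Dgat2 and Map6, and on the distal side Gdpd5, Rps3, Arrb1, Tpbgl and Slco2b1. Over the whole table, 1363 genes had an unadjusted p under 0.05. The other 9 genes are spread over 6 chromosomes (mm10). P4hb (120560298 to 120573253), Fkbp10 (100415697 to 100424824), Col1a1 (94936224 to 94953042) and Sparc (55394500 to 55423183) lie on chromosome 11. P4ha1 lies on chromosome 10 from 59323296 to 59373304, Plod1 on chromosome 4 from 147909753 to 147936767, and Plod3 on chromosome 5 from 136987019 to 136996648. Col1a2 lies on chromosome 6 from 4504814 to 4541544 and Col3a1 on chromosome 1 from 45311538 to 45349706.

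The promoters of Serpinh1 and P4hb are shown because both proteins act on procollagen in the same compartment, and the Serpinh1 libraries separated by genotype where the P4hb libraries overlapped. The sequences are the 250 bases before the RefSeq start (GRCm38.p6), read in the direction of transcription, at chr7:99353240-99353489 (minus strand) for Serpinh1 and chr11:120573254-120573503 (minus strand) for P4hb. Capitals mark CCAAT and CCACG, the ends of the element that the unfolded protein response is known to use.
Serpinh1: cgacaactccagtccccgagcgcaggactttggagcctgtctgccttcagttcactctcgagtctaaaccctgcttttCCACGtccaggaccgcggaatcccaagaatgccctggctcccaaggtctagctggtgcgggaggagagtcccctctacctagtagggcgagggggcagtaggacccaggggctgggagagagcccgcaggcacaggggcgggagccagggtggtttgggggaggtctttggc
P4hb: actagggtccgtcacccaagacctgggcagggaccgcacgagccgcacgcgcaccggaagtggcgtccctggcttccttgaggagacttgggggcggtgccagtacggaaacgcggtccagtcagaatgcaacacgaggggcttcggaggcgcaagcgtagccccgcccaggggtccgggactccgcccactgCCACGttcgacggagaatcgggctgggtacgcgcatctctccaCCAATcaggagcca
CCACG began 172 bases before the start in Serpinh1 and 57 bases before it in P4hb, and of this pair CCAAT was found in P4hb alone, 14 bases before its start. Promoter sequences were matched for 8 of the 10 genes, all but Col1a1 and Fkbp10. Searched on both strands, CCACG was in 4 of the 8 and in 28.3% of 32851 promoters of the same length, and CCAAT was in 3 of the 8 and in 33.8%. The full element, CCAAT followed after any 9 bases by CCACG, was in 0 of the 8 and in 0.113% of all promoters. A short heat shock element, TTCNNGAA or GAANNTTC, was in 0 of the 8 and in 12.8%. TATAAA was in 2 of the 8 and in 12.4%, and GGGCGG was in 5 of the 8 and in 32.7%. These are letter matches in short windows and not binding sites.

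The 2 prolyl 4-hydroxylase subunits in the set, P4hb and P4ha1, did not separate by genotype. P4hb, the protein disulfide isomerase that is the beta subunit of prolyl 4-hydroxylase, had 33608, 30496, 32294, 28351 and 36231 normalized counts in KO replicates 1 to 5, against 27023, 31679, 31679 and 31069 in WT replicates 1 to 4. The groups overlapped and the highest library was 1.34 times the lowest. Its log2 difference was 0.083 (SE 0.083, 95% interval -0.094 to 0.26). P4ha1, a catalytic alpha subunit of the same enzyme, had 3546 to 4996 normalized counts in KO and 3058 to 4634 in WT. Its difference was 0.067 (SE 0.16, 95% interval -0.26 to 0.40), so the groups lay on each other.

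The lysyl hydroxylases and the isomerase overlapped between the groups as well, and Fkbp10 had the widest interval of the 10 genes. Plod1, which hydroxylates helical lysines, had 5810 to 8298 normalized counts in KO and 5844 to 6569 in WT, a log2 difference of 0.21 (SE 0.11, 95% interval -0.030 to 0.45). Plod3, which also adds glucose to hydroxylysine, had 2610 to 3167 in KO and 2175 to 2997 in WT, a difference of 0.12 (SE 0.14, 95% interval -0.17 to 0.41). In both genes the KO and WT ranges crossed. Fkbp10, which encodes the isomerase FKBP65, was the least abundant of the 10 and the most uneven. Its normalized count was 444, 402, 596, 1239 and 1729 in KO replicates 1 to 5, against 642, 738, 262 and 342 in WT replicates 1 to 4. KO replicates 4 and 5 exceeded every WT library, and the other 3 KO libraries lay within the WT range. The difference was 0.71 with a 95% interval of -0.26 to 1.69 (SE 0.46). Fkbp10 overlaps Nt5c3b and Plod3 overlaps Znhit1 on the opposite strand. The use of strand in counting is not given in the sources used here, so reads of each pair cannot be told apart.

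Collagen chain transcripts were abundant in both genotypes and overlapped. Col1a1, the alpha-1 chain of type I collagen, had 8181, 12024, 12289, 11487 and 16716 normalized counts in KO replicates 1 to 5, against 11244, 14133, 9869 and 8079 in WT replicates 1 to 4. Col1a2, the alpha-2 chain, had 10732, 14064, 13652, 16853 and 21354 in KO, against 13970, 15792, 11456 and 8648 in WT. In both genes KO replicate 5 was the highest library and WT replicate 4 the lowest. The log2 difference was 0.16 for Col1a1 (SE 0.18, 95% interval -0.22 to 0.54) and 0.30 for Col1a2 (SE 0.18, 95% interval -0.097 to 0.69). Col3a1, the chain of type III collagen, had 10862, 13872, 13449, 16023 and 19243 in KO, against 15102, 18951, 14482 and 11458 in WT. Here KO replicate 1 was lowest, and the difference was -0.033 (SE 0.15, 95% interval -0.36 to 0.30). The upper ends of these 3 intervals lay below the lower end of the Serpinh1 interval, 1.11. The Serpinh1 difference was known when the genes were chosen, so this is a description and not a test.

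Sparc, which encodes a glycoprotein that binds secreted collagen, followed the collagen chains. Its normalized count was 29426, 39355, 41439, 39952 and 54196 in KO replicates 1 to 5, against 37240, 40453, 32472 and 24212 in WT replicates 1 to 4. KO replicate 5 was again the highest library and WT replicate 4 the lowest. The log2 difference was 0.28 (SE 0.16, 95% interval -0.051 to 0.62). Over the 10 genes the median difference was 0.18 and 9 were above 0. Over all genes the median was 0.021 and 52.4% were above 0.

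**Figure D1:**
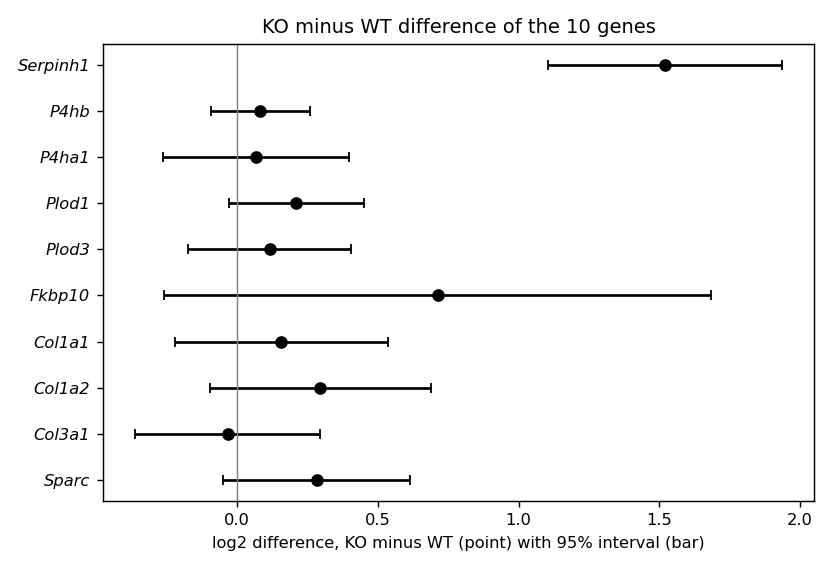
Log2 difference, KO minus WT, of each of the 10 genes (point) with its 95% interval (bar). Serpinh1 stands at 1.52, with an interval from 1.11 to 1.94, and the intervals of the other 9 genes include 0.

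Normalized counts depend on transcript length, so the genes were also ordered by counts per kilobase of the principal GENCODE transcript. Sparc was highest, at 17771 ± 3840 per kilobase in KO (SD, n = 5) and 14606 ± 3071 in WT (SD, n = 4). P4hb followed at 11253 ± 1048 in KO and 10613 ± 785 in WT. Serpinh1 was the third in both groups, at 9401 ± 3467 in KO and 3130 ± 375 in WT, so it stood near P4hb in KO and near the collagen chains in WT. In KO its lowest library, at 6135, was below the P4hb range and its highest, at 14887, above it, so these neighbours did not differ beyond their spread. Col1a2, Col3a1, Plod1 and Col1a1 formed a group between 2047 and 2867 in KO means and between 1827 and 2696 in WT means. Their libraries overlapped, except that in WT every Plod1 library (1802 to 2026) was below every Col3a1 library (2059 to 3406). P4ha1 (1006 in KO, 969 in WT), Plod3 (852 in KO, 790 in WT) and Fkbp10 (341 in KO, 192 in WT) were lowest. With the length of all annotated exons instead, P4hb came before Sparc and Col1a1 moved to the fourth place.

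Within single libraries, Serpinh1 was compared with the collagen transcripts that its protein serves. The ratio of its normalized count to that of Col1a1 was 1.16 to 2.03 in KO and 0.447 to 0.838 in WT. To Col1a2 it was 0.992 to 1.67 in KO and 0.400 to 0.772 in WT, and to Col3a1 it was 1.01 to 1.76 in KO and 0.333 to 0.583 in WT. In each ratio every KO library exceeded every WT library. The ratio to Sparc was 0.355 to 0.625 in KO and 0.156 to 0.276 in WT, and to P4hb it was 0.458 to 0.934 in KO and 0.199 to 0.267 in WT. KO replicate 2 had the lowest of the KO ratios for all 5 genes. These ratios rest on the same genotype difference of Serpinh1 and are a description.

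**Figure D2:**
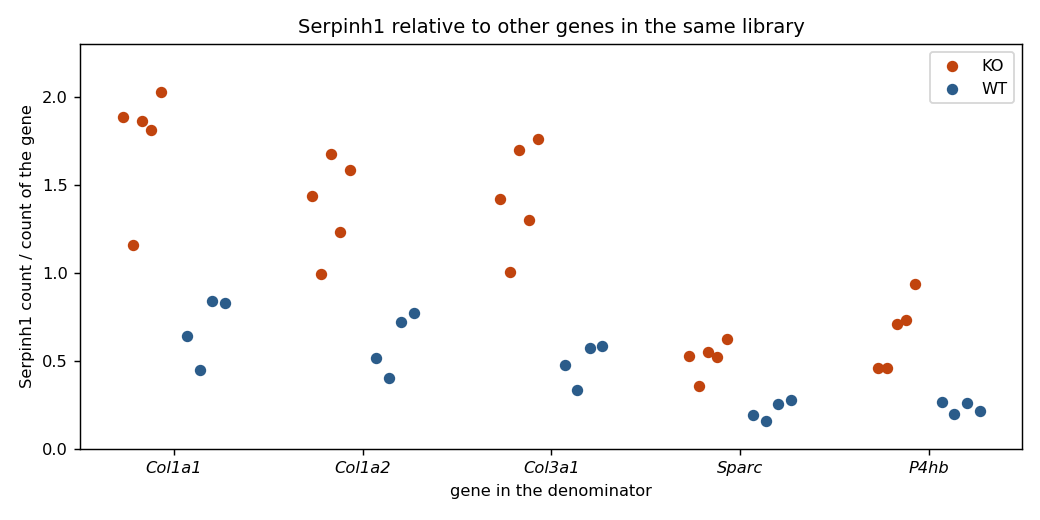
Serpinh1 normalized count divided by that of 5 other genes in the same library, 1 point per library, KO left of WT. For Col1a1 the KO ratios lie between 1.16 and 2.03 and the WT ratios between 0.447 and 0.838, and KO and WT points do not overlap for any of the 5 genes.

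How the 10 genes varied among libraries of the same genotype did not enter their choice, and it was tested. Each library's log2 value was taken as a deviation from the mean of its genotype, and 75 relations over the 9 libraries were tested by exact permutation within genotype (2880 rearrangements), 45 between pairs of the genes and 30 with the mean log2 value of a list of markers of other cells, in which each marker has equal weight. The highest correlations were among the collagen chains and Sparc. Col1a2 and Col3a1 had r = 0.98 (rho = 0.97, permutation p = 0.00035 for both, the smallest the rearrangements can give, adjusted p = 0.026 for r and 0.013 for rho), and r = 0.97 without KO replicate 5 and WT replicate 2. Col1a2 and Sparc had r = 0.96 (permutation p = 0.0014, adjusted p = 0.043) and rho = 0.88 (permutation p = 0.0049, adjusted p = 0.091), with r = 0.92 without the same libraries. The other 4 pairs among Col1a1, Col1a2, Col3a1 and Sparc had r of 0.94 to 0.98 with permutation adjusted p of 0.052 to 0.071, which missed the threshold.

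Serpinh1 had lower correlations with them. Its r with the other 9 genes lay between -0.17 and 0.59, and 0 of its relations passed (smallest permutation adjusted p = 0.25). With Sparc it was r = 0.57 (rho = 0.53, permutation p = 0.11 and 0.18, adjusted p = 0.37 and 0.59) and 0.45 without KO replicates 2 and 5. KO replicate 2 was low in Serpinh1 and near the mean in the chains, and WT replicate 2 was high in the chains and below its mean in Serpinh1. WT replicate 3 was the highest WT library in Serpinh1 but lay below WT replicates 1 and 2 in the chains. WT replicate 4 was the lowest WT library in the chains but not in Serpinh1. Whether the r of Serpinh1 differs from that of the chains was not tested.

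**Figure D3:**
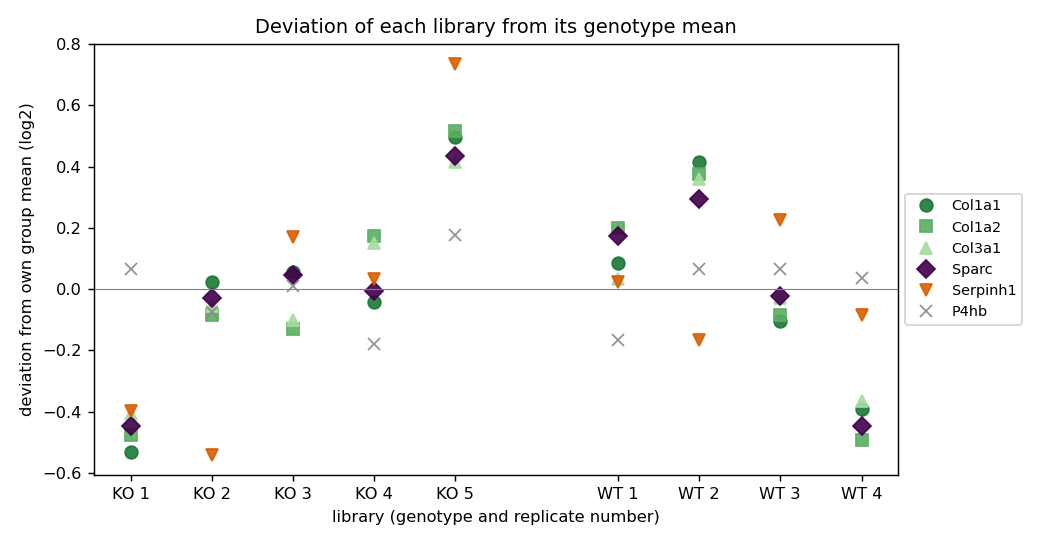
Deviation of 6 genes from their genotype mean (log2) in each KO (left) and WT (right) library, 1 symbol per gene. Col1a1, Col1a2, Col3a1 and Sparc lie close together in each library, with r of 0.94 to 0.98. Serpinh1 departs from them in KO replicate 2 and in WT replicates 2, 3 and 4.

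Markers of other cell types were present in these sorted cells, most of them above 0 in KO minus WT. The 12 fibroblast markers summed to 269290 to 396332 normalized counts in KO and 189119 to 249604 in WT, without overlap, and 11 of 12 were above 0 (median 0.43). Gsn, which encodes gelsolin, made up 79.6% to 84.2% of that sum, and the other 11 markers summed to 44603 to 74008 in KO and 34759 to 50448 in WT, with overlap. The 12 endothelial markers summed to 5300 to 9813 in KO and 2039 to 4752 in WT, without overlap, and 12 of 12 were above 0 (median 1.34). In 3 of the 12 every KO library was above every WT library (25%, against 1.55% over all genes). These were Pecam1 (1.47), Vwf (1.33) and Tie1 (3.05), with limma adjusted p = 0.076, 0.095 and 0.17. The 9 measured mesothelial markers summed to 7699 to 25917 in KO and 3323 to 11846 in WT, with overlap, and 9 of 9 were above 0 (median 1.38). No marker of these lists was at the floor in every library. By limma 0 of them passed the threshold, against 0.309% of all genes (smallest adjusted p = 0.071). Pdgfra, a receptor that marks fibroblasts, had 3982 to 6413 in KO and 2361 to 4936 in WT. Relative to the fibroblast sum, Serpinh1 was 0.0518 to 0.0854 in KO and 0.0263 to 0.0353 in WT, a ratio set mostly by Gsn. Relative to the sum of the other 11 markers it was 0.295 to 0.457 in KO and 0.129 to 0.192 in WT. KO and WT libraries did not overlap in either fibroblast ratio. Relative to the mesothelial and endothelial sums they did overlap. Serpinh1 was 15431 against a mesothelial sum of 25917 in KO replicate 1, and 6317 against 3323 in WT replicate 2. It was 15431 against an endothelial sum of 7228 in KO replicate 1, and 6677 against 2039 in WT replicate 4.

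The mean log2 value of the fibroblast markers was correlated with Sparc among libraries of 1 genotype. The pair had r = 0.86 (permutation p = 0.0017, adjusted p = 0.043) and rho = 0.82 (permutation p = 0.015, adjusted p = 0.16), with r = 0.85 without KO replicate 1 and WT replicate 4. Serpinh1 and the fibroblast mean had r = 0.71 (rho = 0.58, permutation p = 0.072 and 0.16, adjusted p = 0.28 and 0.59), which fell to 0.37 without KO replicates 2 and 5. Plod1 ran against the mesothelial mean, with rho = -0.95 (permutation p = 0.00035, adjusted p = 0.013) and r = -0.83 (permutation p = 0.0094, adjusted p = 0.078), and r = -0.84 without KO replicates 1 and 2. The pericyte, adipocyte, platelet and macrophage sums overlapped between the genotypes, and 5 of 12 macrophage markers were above 0. In 3 of the 12 every KO library was below every WT library (25%, against 1.6% over all genes). These were C1qa (-0.50), C1qc (-0.39) and Fcgr1 (-0.50), with limma adjusted p = 0.067, 0.095 and 0.12. Of the 7 adipocyte markers 1 was below in every KO library (14.3%). It was Lep, at 1.3 to 152.5 normalized counts in KO and 154.1 to 568.2 in WT (limma adjusted p = 0.17). The ratios of Serpinh1 to the marker sums rest on its known genotype difference and are a description. The part of other cells in the Serpinh1 difference was not tested.

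The genes whose deviations were most like those of Serpinh1, among genes at or above the median level of 648.6, were Cyr61 (r = 0.95 over 9 libraries), Enpp5 (0.92), Sorbs3 (0.91), Tgfb1i1 (0.90), Cpxm1 (0.89), Cep120 (0.89), Sin3a (0.88), P2ry12 (0.88), Smoc2 (0.88) and Zfp260 (0.88). Picked as the highest over all such genes, these r are a description. Without KO replicates 2 and 5 they were 0.94 for Cyr61 and 0.90 for Cpxm1, and 0.46 to 0.82 for the other 8. The genotype groups overlapped in all 10 genes. P2ry12 lies across Med12l on the opposite strand, so their reads cannot be told apart. Cyr61, a matricellular protein gene, had 3233, 3767, 6108, 5049 and 8634 normalized counts in KO replicates 1 to 5, against 4797, 4240, 5123 and 3718 in WT replicates 1 to 4. It shared the ranking of Serpinh1 among KO libraries closely, with KO replicate 5 highest, but had a genotype difference of 0.18 (SE 0.22).

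Around the 10 genes, 156 of 158 genes on 10 lists of the collagen pathway were measured, all but Col2a1 and Col11a1. Of the 156, 2 passed the threshold as higher in KO (Serpinh1 and Tll1), 1 as lower (Mmp2) and 153 did not, which is 1.92% against 0.309% over all genes. Every KO library was above every WT library in 9 of the 156 (5.77%, against 1.55% over all genes) and below in 2 (1.28%, against 1.6%). The lists hold Serpinh1 itself and were drawn up with its result known, so these shares support nothing on their own. At a share of 0.309% over all genes, a short list without a call does not show that its process was unaffected. The median difference over the 156 was 0.11.

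Folding and modification was the list with the highest median, 0.47, and 17 of its 20 genes were above 0. Serpinh1 was its 1 gene past the threshold. P4ha2, the alternative alpha subunit of prolyl 4-hydroxylase, had a mean normalized count of 1026 ± 198 in KO (SD, n = 5) and 548 ± 110 in WT (SD, n = 4), a difference of 0.91 (limma adjusted p = 0.19). P3h3, a prolyl 3-hydroxylase family member, averaged 599 ± 130 in KO and 284 ± 142 in WT, a difference of 1.17 (limma adjusted p = 0.27). P3h2, another prolyl 3-hydroxylase, averaged 136 ± 76.4 in KO and 16.4 ± 10.7 in WT, a difference of 3.31 (limma adjusted p = 0.20). Its WT replicate 3 was at the floor of 1, and with a pseudocount of 10 the difference was 2.44. P3h2 overlaps the antisense gene Gm4524 on the opposite strand, so their reads cannot be told apart. In P4ha2, P3h3 and P3h2 every KO library was above every WT library, although none of these 3 genes passed the threshold. With Serpinh1 that was 4 of the 20 (20%, against 1.55% over all genes), on a list drawn up with the Serpinh1 result known. Ppib, which encodes cyclophilin B of the 3-hydroxylation complex, had 25484 to 28123 normalized counts in KO and 24610 to 26564 in WT.

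Export of procollagen showed no call. Of its 14 genes 0 passed, against 0.309% of all genes (smallest limma adjusted p = 0.49, median difference 0.060). In 0 of the 14 did the groups separate, against 3.15% of all genes. Mia3, which encodes the TANGO1 protein that loads procollagen into carriers, had 2878 to 3449 normalized counts in KO and 3296 to 3729 in WT, a difference of -0.25. Sar1b, a GTPase of the carrier coat, had a difference of -0.15 and Tmem39a one of 0.42.

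Of the 14 genes of propeptide cleavage and cross-linking, 1 passed. Tll1, a tolloid protease that cuts the C-propeptide of procollagen, had 59.4, 57.6, 110.1, 41.9 and 314.4 normalized counts in KO replicates 1 to 5 and was at the floor of 1 in all 4 WT libraries. It overlaps the rRNA gene Gm22586 on the opposite strand, and reads of the 2 cannot be told apart. With WT set to 3 reads per library, the KO mean was at least 34.8-fold higher, and at least 20.1-fold without KO replicate 5, a bound that covers counting error only. The limma adjusted p was 0.022, and the call was lost without any 1 of the KO libraries or of WT replicates 2, 3 and 4 (adjusted p 0.052 to 0.088), with a pseudocount of 10 (0.051) and by limma-voom (0.076). Adamts3, an N-propeptide protease, averaged 281 ± 142 in KO and 60.0 ± 75.4 in WT with overlap (limma adjusted p = 0.23). Bmp1, the main C-propeptide protease, had a difference of 0.49 and Pcolce2, an enhancer of that cleavage, one of 0.42, neither past the threshold.

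Collagen chains had no call either. Of the 9 measured fibrillar chains, which include Col1a1, Col1a2 and Col3a1, 0 passed, against 0.309% of all genes (smallest limma adjusted p = 0.49). The median of the 9 was 0.072. The 6 outside the set had a median of -0.50, with 3 above 0 and 3 below. Of 16 basement membrane and other chains 0 passed, against the same 0.309% (smallest limma adjusted p = 0.51), and their median was 0.13. Col5a3 had a difference of -1.26, Col11a2 -2.28, Col8a1 -0.99, Col4a2 -0.50 and Col18a1 0.81, each with overlapping groups. Col11a2 was at most 62.8 normalized counts in any library. Col4a2 overlaps Col4a1 and Col18a1 overlaps Slc19a1 on the opposite strand, so their reads cannot be told apart.

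Among 14 collagen-binding and matricellular genes 0 passed, against 0.309% of all genes. Of the 14, 12 were above 0 and 2 below, and the median was 0.23. Postn, which encodes periostin, averaged 1227 ± 235 normalized counts in KO and 2219 ± 390 in WT, with every KO library below every WT library and a difference of -0.86 (limma adjusted p = 0.082). Fn1, which encodes fibronectin, averaged 42491 ± 6012 in KO and 32064 ± 5800 in WT, with every KO library above every WT library and a difference of 0.41 (limma adjusted p = 0.22). Fmod, which encodes the small proteoglycan fibromodulin, averaged 4528 ± 2086 in KO and 2129 ± 800 in WT, with overlap (limma adjusted p = 0.23). Postn and Fn1 were the 2 genes of the list whose libraries did not overlap, on opposite sides of 0. That is 7.14% of the list each way, against 1.6% of all genes below and 1.55% above.

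The uptake and receptor list held the 1 lower call. Mmp2, a gelatinase that digests denatured collagen, had 3037, 2817, 2674, 2898 and 3200 normalized counts in KO replicates 1 to 5, against 5124, 4657, 6099 and 3656 in WT replicates 1 to 4. Every KO library was below every WT library, and the difference was -0.72 (SE 0.14, limma adjusted p = 0.048). The call was kept without WT replicate 4 (adjusted p = 0.036) and lost without any other single library (adjusted p 0.14 to 0.23). It was also lost with a pseudocount of 0.1 (adjusted p = 0.051), quantile scaling (0.070), depth class as a term (0.10) and limma-voom (0.063). Lair1, an inhibitory collagen receptor of leukocytes, had a difference of -0.35, Ctsk, a collagen-degrading cathepsin, 0.22, and Mrc1, the mannose receptor, -0.20, none past the threshold.

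Serpinh1 is a known heat shock gene, so 17 genes of that response were examined. Of these 0 passed, against 0.309% of all genes (smallest limma adjusted p = 0.11). Of the 17, 13 were above 0 and the median was 0.16. Dnajb1, a co-chaperone of HSP70, averaged 10772 ± 2052 normalized counts in KO and 7270 ± 953 in WT, a difference of 0.56 (limma adjusted p = 0.11). Hspa1b, which encodes an HSP70, averaged 1026 ± 262 in KO and 567 ± 104 in WT without overlap (limma adjusted p = 0.25), but it shares reads with its near-identical copy Hspa1a and is uncertain. Hspa1a had 2338 to 4486 in KO and 1544 to 2701 in WT, with overlap and a difference of 0.58 (limma adjusted p = 0.31). Dnaja1, which overlaps Smu1 on the opposite strand, had a difference of 0.27 (limma adjusted p = 0.26). Hspb1, picked after its values were seen because its libraries did not overlap, had 263 to 536 in KO and 108 to 250 in WT (limma adjusted p = 0.47). Hspa1b and Hspb1 were the 2 of the 17 in which every KO library was above every WT library (11.8%, against 1.55% over all genes).

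Chaperones of the secretory pathway, which serve all secreted proteins, centred on 0. Of 20 genes 0 passed, against 0.309% of all genes (smallest limma adjusted p = 0.49). Of the 20, 10 were above 0 and the median was 0.0083. Kdelr2, a receptor that returns escaped chaperones to the endoplasmic reticulum, had 21653 to 24361 normalized counts in KO and 19367 to 21181 in WT, without overlap and with a difference of 0.16. Its relative Kdelr1 had a difference of 0.36 and the co-chaperone Dnajb9 0.33, and in both the groups overlapped. Kdelr1 lies across Grin2d on the opposite strand, so their reads cannot be told apart. TGF-beta signalling, a main inducer of collagen genes, gave 0 of 16 genes past the threshold, against 0.309% of all genes (smallest limma adjusted p = 0.52). The median of the 16 was -0.052. On this list the latent TGF-beta binding proteins Ltbp1 and Ltbp2 had differences of 0.49 and 1.98, and the signal transducer Smad2 had -0.38. In each the groups overlapped. Ltbp2 was low in WT replicate 4, at 5.5 normalized counts, and its difference was 0.88 to 2.70 with each library left out in turn.

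**Figure D4:**
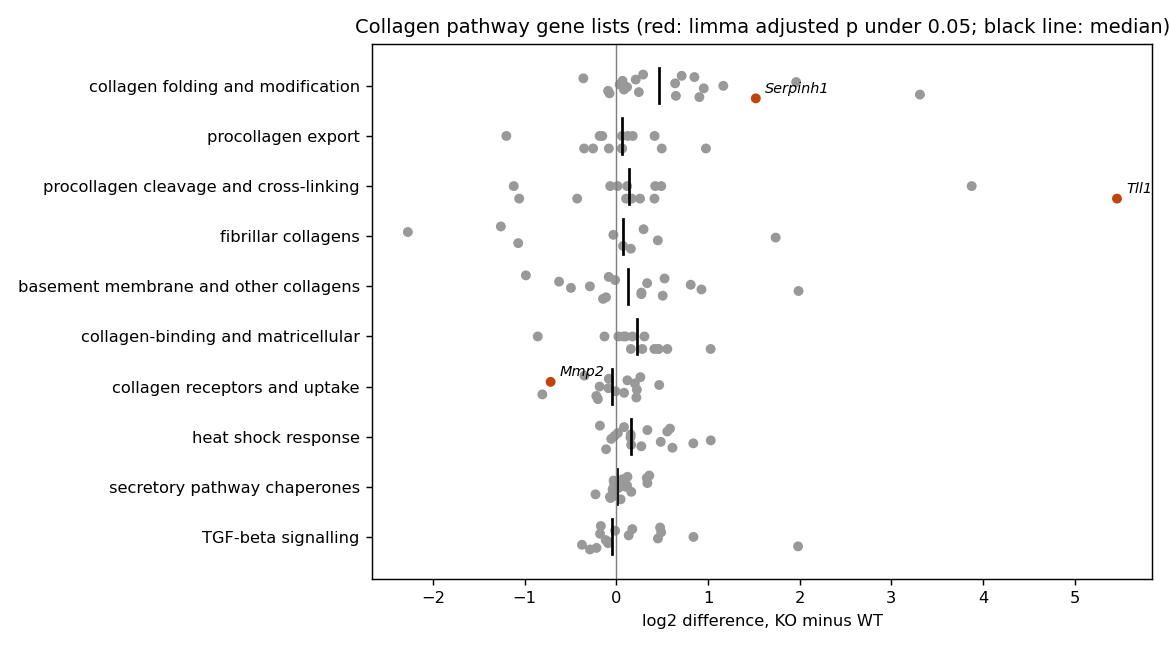
Log2 difference, KO minus WT, of each measured gene on the 10 lists (points), with the list median as a black line and genes past the threshold in red. Serpinh1 (1.52), Tll1 (fitted at 5.46, with every WT library at the floor) and Mmp2 (-0.72) are the 3 genes past it, and the medians run from -0.052 to 0.47.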

How the data were processed

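RNA from 9 sorted libraries was sequenced. The libraries were poly(A)-selected and strand-specific, per the labels' protocols. Tools named in the submitters' processing notes, with no role given, are DESeq2, Partek, HISAT and CASAVA 1.8.2, and the build is mm10. The deposited signal is a normalized count per gene: read counts over 1 factor per library, values under 1 set to 1, as read from the values, of which 99.5% to 99.7% above the floor were whole multiples of a step within 0.1 of it. The lowest gene mean was 5.09. The sources used here give neither the annotation nor the counting of shared reads.

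Differences came from limma 3.58.1 (R 4.3.3) fitted to log2(normalized count + 1), with a mean-variance trend, 9 libraries, genotype only, and Benjamini-Hochberg adjustment over 14905 genes at 0.05. This scale understates changes of low genes. Exact permutation tests used SciPy 1.17.1 under Python 3.11.15, and figures matplotlib 3.10.9. The code was tested on simulated data. Positions are from GENCODE M21 on GRCm38, matched by symbol for 14395 genes (96.6%), and promoters from RefSeq.

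The members, lists and markers were chosen with earlier results of these data known. Named genes are the 10 members, Nucb2, list genes past the threshold with up to 3 more of each list by smallest p, the 10 genes most correlated with Serpinh1 and its 10 nearest neighbours. Hspb1, Hspa1a, Ppib and the marker genes Adgre1, Itgam, Pdgfra, Gsn, Pecam1, Vwf, Tie1, Lep, C1qa, C1qc and Fcgr1 were picked after their values were seen. Alternatives were pseudocounts of 0.1 and 10, genes with a mean of at least 10, median-ratio, TMM and quantile scaling, depth class, a replicate block, the deeper libraries alone and each library left out. Limma-voom on recovered reads, leaving out KO replicate 5 with WT replicate 4, and the fibroblast sum without Gsn, were added after seeing the data. So was the comparison of Serpinh1 with the mesothelial and endothelial sums.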

Additional observations from a re-analysis of the deposited data

Results flagged for a closer look

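Among 25 groups tested for a library far from the others of its genotype, 2 stood out, and chance alone gives about 1 in 20. P4hb in WT replicate 1 had 27023 normalized counts, and the nearest WT library had 31069. Tll1 in KO replicate 5 had 314.4, and the nearest KO library had 110.1. Their causes were not tested.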

How the results depend on the processing

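The count of genes past the threshold was 46 of 14905 in all 9 libraries. It was 33 to 52 under other pseudocounts, filters and scalings and with depth class as a term, 32 by limma-voom (12 higher and 20 lower, against 27 and 19) and 3 without KO replicate 5 and WT replicate 4. It was 5 to 38 with each library left out in turn. With a replicate block, for which KO replicate 5 has no partner, it was 0 (1104 genes at an unadjusted p under 0.05 by limma), and 0 in the 6 deeper libraries alone (1039 genes). Deviations of same-numbered KO and WT libraries correlated by -0.025 to 0.019, and those of differently numbered ones by -0.041 to 0.043. What the numbers mean is not stated, and a correlation over all genes cannot exclude a pairing that moves few of them. Of the 156 pathway genes, 3 passed. The count was 2 or 3 under the pseudocounts, filters, scalings and depth class, 1 by limma-voom, 0 with the block (22 at an unadjusted p under 0.05), 0 in the deeper libraries alone (14), 0 without KO replicate 5 and WT replicate 4 (14), and 0 to 2 with each library left out. Nucb2 was -1.58 with the block (adjusted p = 0.0515) and -1.61 in the deeper libraries alone (adjusted p = 0.116).

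Serpinh1 was above 0 under all 20 alternatives, from 1.31 to 1.67, and past the threshold in 13. It missed it in 7, with adjusted p of 0.059 (block), 0.16 (deeper libraries alone), 0.095 (without KO replicate 5 and WT replicate 4) and the 4 single libraries named above. Signs turned for genes near 0: Col3a1 was 0.022 under quantile scaling and -0.26 to 0.087 with libraries left out (0.069 without KO replicate 1, 0.087 without WT replicate 2). P4ha1 was -0.010 with the block and -0.044 to 0.16 with libraries left out (below 0 without KO replicate 5 or WT replicate 1). In the deeper libraries alone Fkbp10 was -0.19, Col1a1 -0.22, Col1a2 -0.12 and Sparc -0.061. Col1a1 was -0.10 without KO replicate 5 and WT replicate 4, and 0.30 at most with a library left out. The causes were not tested. The planned count-model test was not run, because the floor of 1 hides the lowest counts, and limma-voom took its place.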
